A study of Rattus norvegicus with 6 samples.

Results

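The transcripts described here are those of the matrix metalloproteinases, the ADAM and ADAMTS proteases and the tissue inhibitors of metalloproteinases (TIMPs) in the rat common carotid artery. Members were all rows of the deposited read-count table whose symbol is Mmp, Adam or Adamts followed by a number, with or without a letter suffix, together with Timp1 to Timp4. This gave 72 of the 24005 gene symbols in the table, of which 23 were Mmp, 26 Adam, 19 Adamts and 4 Timp genes. Per the labels, a clot had been formed in the artery with ferric chloride and the vessel reopened by sonodynamic therapy, in which ultrasound drives a sensitizer, combined with what the submitters call physical-explosion therapy. Poly(A)-selected RNA was sequenced in 2 libraries of recanalized artery taken 7 days after treatment, 3 taken 1 day after treatment and 1 library of normal artery as the control. The labels used here state neither strain, sex, age nor how many animals stand behind a library, so each p-value reflects only how far these libraries differ, which may be technical. No group had the clot or the treatment alone, so effects of ferric chloride, the clot and the therapies cannot be told apart, and the single control gives no spread of its own.

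As background, metalloproteinases use a zinc ion to cleave proteins outside the cell. The MMPs cut collagens, elastin and other matrix proteins and are made as inactive precursors, the ADAMs are mostly membrane proteins that release growth factors, cytokines and receptors from the cell surface, and the ADAMTS enzymes are secreted proteases of proteoglycans, procollagens and von Willebrand factor. TIMPs bind the active enzymes one to one and block them. In injured arteries these enzymes are known for breaking down the elastic layers and for letting smooth muscle cells and leukocytes move through the wall.

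A run of 10 neighbouring Mmp genes on rat chromosome 8, with no other protein-coding gene between them in the RefSeq annotation of GRCr8 (Mmp13, Mmp12, Mmp1b, Mmp3, Mmp1, Mmp10, Mmp8, Mmp27, Mmp20 and Mmp7 in order), holds all 6 of the tested members that had 0 counts in the normal artery (Mmp13, Mmp12, Mmp1b, Mmp3, Mmp10 and Mmp7). Promoter sequences were taken from RefSeq (GRCr8), where 48 of the 72 members had an entry of 250 bases before to 50 bases after the gene start. The letters TGANTCA, the binding motif of the AP-1 transcription factors (either strand, the motif being its own reverse complement), were found in 7 of the 10 promoters of the run, in 9 of the 48 members with a promoter (18.8%) and in 8.04% of 27457 genes. In 6 of these 7 promoters the motif began 61 to 96 bases before the gene start, and in Mmp1 it was present 242 and 84 bases before it. A loose form of the NF-kB motif (both strands) was found in 29 of the 48 members (60.4%) and in 50.2% of all genes. The 150 bases before the start are shown for 4 genes with the AP-1 letters, Mmp13, Mmp12, Mmp3 and Mmp10, and for their neighbours Mmp8 and Mmp27, which had neither motif. Capitals mark the AP-1 letters, and in Mmp12 also 1 match to the NF-kB letters that began 142 bases before the start. A match is a description of these letters and was not tested as a binding site. The letters did not separate the run by expression: Mmp1b had none and was at 0 in the control like Mmp13, while Mmp1 and Mmp20 had them and were at 0 or too low to test.
Mmp13 promoter, chr8:12782679-12782828, plus strand: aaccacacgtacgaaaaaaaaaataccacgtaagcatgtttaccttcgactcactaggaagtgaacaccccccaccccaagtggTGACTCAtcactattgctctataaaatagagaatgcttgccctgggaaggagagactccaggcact
Mmp12 promoter, chr8:12866502-12866651, plus strand: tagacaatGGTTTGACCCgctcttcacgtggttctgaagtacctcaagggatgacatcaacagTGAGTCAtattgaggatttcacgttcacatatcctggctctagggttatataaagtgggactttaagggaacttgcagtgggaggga
Mmp3 promoter, chr8:12925131-12925280, plus strand: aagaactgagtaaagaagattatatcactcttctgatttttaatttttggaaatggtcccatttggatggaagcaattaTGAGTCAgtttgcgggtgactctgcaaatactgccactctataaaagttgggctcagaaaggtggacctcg
Mmp10 promoter, chr8:12974557-12974706, plus strand: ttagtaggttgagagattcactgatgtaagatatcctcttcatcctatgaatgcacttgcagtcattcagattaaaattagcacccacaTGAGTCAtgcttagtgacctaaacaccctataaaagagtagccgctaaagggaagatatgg
Mmp8 promoter, chr8:13008740-13008889, plus strand: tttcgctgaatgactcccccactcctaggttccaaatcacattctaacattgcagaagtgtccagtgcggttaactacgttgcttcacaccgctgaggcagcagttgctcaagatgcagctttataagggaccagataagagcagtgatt
Mmp27 promoter, chr8:13030602-13030751, plus strand: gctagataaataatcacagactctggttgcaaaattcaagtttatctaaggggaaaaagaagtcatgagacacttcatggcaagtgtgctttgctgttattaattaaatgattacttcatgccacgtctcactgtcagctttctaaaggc

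Library totals were 30078022 to 47240013 counts. Levels of a gene between libraries are given as CPM (counts scaled to a common library total) scaled by normalized library totals, on which 3 counts, the floor used here for a gene at 0, are 0.0598 to 0.0974 CPM. Intervals and floors cover counting error only. Levels of different genes are compared as the authors' FPKM, which also divides by gene length. The library labelled day 1 replicate 1 stood apart from its group. Over all tested genes, which are not independent replicates, the correlation of its log2 CPM with day 1 replicates 2 and 3 was 0.883 and 0.919 (Pearson), and with the control 0.948. The summed level of 8 macrophage markers was 1435 and 997 CPM at day 7, 16.5, 1060.0 and 599.9 CPM at day 1 and 63.2 CPM in the control. That of 8 smooth muscle markers was 17183 and 16938 CPM at day 7, 27936, 6416 and 9665 CPM at day 1 and 27112 CPM in the control, and that of 8 endothelial markers was 1601 and 1199.8 CPM at day 7, 96.1, 1097 and 252 CPM at day 1 and 1104 CPM in the control. The endothelial markers did not move together. In day 1 replicate 2 Vwf, Pecam1 and Tek were below the control, Vwf at 262 against 721 CPM. Cdh5, Kdr, Tie1, Emcn and Egfl7 were above it there, Cdh5 at 149 against 18.4 CPM. All 8 markers of the smooth muscle, endothelial and fibroblast lists were detected in all 6 libraries. Whether the label or treatment of day 1 replicate 1 is right could not be settled from these data. Calls are therefore given with all libraries and without day 1 replicate 1. Leaving out the day 1 library most like the control favours calls against the control, and each edgeR call of a gene below rests on that fit. In whole-vessel RNA, fewer cells of a type and less RNA per cell cannot be told apart.

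**Figure D1:**
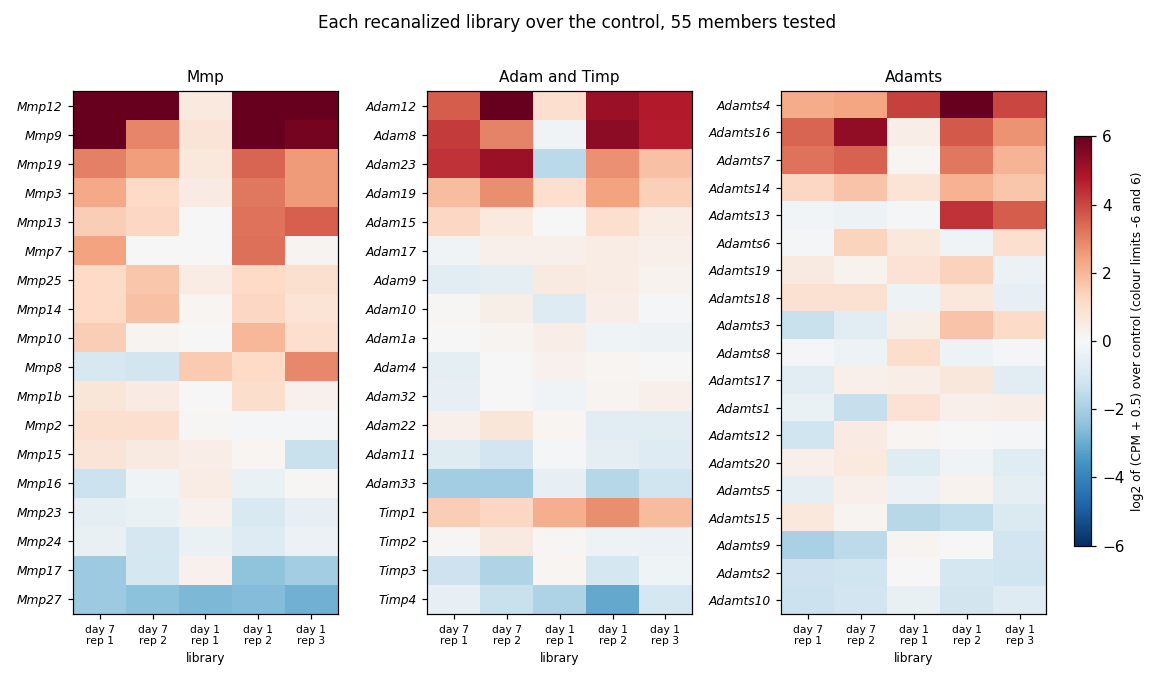
Log2 ratio of each recanalized library to the control, on CPM with 0.5 added, for the 55 members tested. Rows are genes ordered by mean ratio within a subfamily, columns are the 2 day 7 and 3 day 1 libraries, and colours end at -6 and 6. Mmp12 and Adam12 were above the control in all 5 libraries, by the least in day 1 replicate 1, and Mmp27 and Adam33 were below it in all 5.

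Of the 72 members, 11 had 0 counts in all 6 libraries and 6 others were too low to test, which left 55 (18 Mmp, 14 Adam, 19 Adamts and 4 Timp genes). The members at 0 were Mmp1, Mmp11, Mmp28, Adam5, Adam6, Adam7, Adam24, Adam26a, Adam28, Adam34 and Adam34l, which allows each at most 0.0974 CPM in the control. Most of these Adam genes are known from testis and epididymis. The 6 low members were Mmp20, the enamel protease, Mmp21, Adam2, Adam3a, Adam18 and Adam30.

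At day 1 all 3 libraries stood above the normal artery in the macrophage elastase Mmp12, the gelatinase Mmp9, the proteoglycan-cleaving Adamts4 and the inhibitor Timp1, and below it in Mmp27 and Adam33. With all 6 libraries, the edgeR quasi-likelihood test called 0 of 55 members at a Benjamini-Hochberg adjusted p under 0.05, and 0% of 15860 genes. At an unadjusted p under 0.05, 5 members were higher (6.13% of all genes were) and 2 lower (2.53%). Limma-voom called 0 members (0% of all genes) and DESeq2 called 9 (5.09%). Without day 1 replicate 1, edgeR called 8 of 55 members higher, against 4.83% of 15784 genes, and 1 lower, against 0.773%. The 8 were Mmp3, Mmp13, Mmp19, Adam8, Adamts7, Adamts13, Adamts14 and Timp1, and the 1 was Mmp27. In 19 members all 3 day 1 libraries were above the control (27.5% of all genes) and in 9 all were below it (27.2%). Of the members counted here as higher or called, Mmp3, Mmp12 and Mmp13 had 0 counts in the control. They passed the filter only through recanalized libraries and could only count as higher.

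At day 7 the gelatinase Mmp2, its membrane-bound activator Mmp14, Adam12, Adam19, Adam23 and Mmp12 stood above the normal artery in both libraries, and Adam33, Timp3 and Adamts9 below it. With all libraries edgeR called 0 of 55 members (0% of all genes), and at an unadjusted p under 0.05, 8 were higher (6.12%) and 5 lower (3.97%). Limma-voom called 0 (0%) and DESeq2 11 (4.92%). Without day 1 replicate 1, whose spread enters the shared estimate, edgeR called Mmp13, Mmp19, Adam8, Adam23 and Adamts7 higher, 5 of 55 members against 3.81% of all genes, and Adam33 lower, 1 of 55 against 0.577%. Both day 7 libraries were above the control in 28 members (42.9% of all genes) and below it in 19 (36.2%). Of the members counted here as higher or called, Mmp3, Mmp10, Mmp12, Mmp13 and Mmp1b had 0 counts in the control. They too could only count as higher.

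Between the times, day 7 had more Mmp2 and Adamts15 and less Adam9, Mmp8, Adamts1, Adamts3, Adamts4 and Adamts13 than day 1. EdgeR called 0 of 55 members with all libraries (0% of all genes) and 0 without day 1 replicate 1 (0%), limma-voom 0 (0%) and DESeq2 8 (3.18%). At an unadjusted p under 0.05, 2 members were higher at day 7 (4.67% of all genes) and 10 lower (5.43%). The groups did not overlap in 11 members that were higher at day 7 (17.2% of all genes) and in 12 that were lower (16%).

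Among subfamilies, the median log2 fold change over the 18 tested Mmp genes was 2.17 at day 7 and 2.28 at day 1 over the control. With the 6 genes that were at 0 in the control set to the floor, it was 1.51 and 1.55. These 6 genes passed the filter only through recanalized libraries and could not lie below the control. The Mmp medians here are raised by that selection and do not describe the subfamily as a whole. At each time 12 of the 18 were higher, these 6 among them, and 6 were lower. The 14 tested Adam genes had medians of 0.15 and 0.33, the 19 Adamts genes -0.07 and 0.37, and the 4 Timp genes -0.26 and -0.25 at day 7 and day 1. Over all 15860 genes the medians were 0.09 and 0.06. The Mmp median of day 1 differed by library, with a log2 ratio over the control of 0.26 in replicate 1, 1.85 in replicate 2 and 1.25 in replicate 3, while the day 7 libraries had 1.70 and 1.02. The 2 comparisons share the control, so they are not independent.

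Per length, the Mmp transcripts of the artery were mostly Mmp2 and Mmp14. Mmp2, gelatinase A, had the highest FPKM of the 23 Mmp genes in each of the 6 libraries, and its level was 759 and 791 FPKM at day 7, 339, 374 and 353 FPKM at day 1 and 359 FPKM in the control. Mmp14, a membrane-bound MMP that cleaves collagen and activates the Mmp2 precursor, had 311 and 467 FPKM at day 7, 121, 319.9 and 237 FPKM at day 1 and 124 FPKM in the control. In the control and in day 1 replicate 1 these 2 genes ranked 1 and 2, and in the other 4 libraries Mmp12 ranked 2 or 3. The summed FPKM of the 23 Mmp genes was 1664 and 1422 FPKM at day 7, 562, 1176 and 789 FPKM at day 1 and 577 FPKM in the control. The summed FPKM of the 4 Timp genes varied less, at 1008 and 1070.5 FPKM at day 7, 1247, 1109.9 and 1151 FPKM at day 1 and 1151 FPKM in the control. The ratio of the Timp sum to the Mmp sum was therefore 0.606 and 0.753 at day 7, 2.22, 0.944 and 1.46 at day 1 and 1.99 in the control. The control and day 1 replicate 1 had the highest ratios, and the day 7 libraries the lowest. FPKM are not scaled by the normalized library totals, whose factors ran from 0.866 in day 1 replicate 1 to 1.06 in day 7 replicate 1. Small differences of FPKM between libraries can therefore change sign. Mmp2 in day 1 replicate 1 was below the control in FPKM but above it in CPM (1192 against 1135 CPM). The ratio is taken within a library and does not depend on this scaling.

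**Figure D2:**
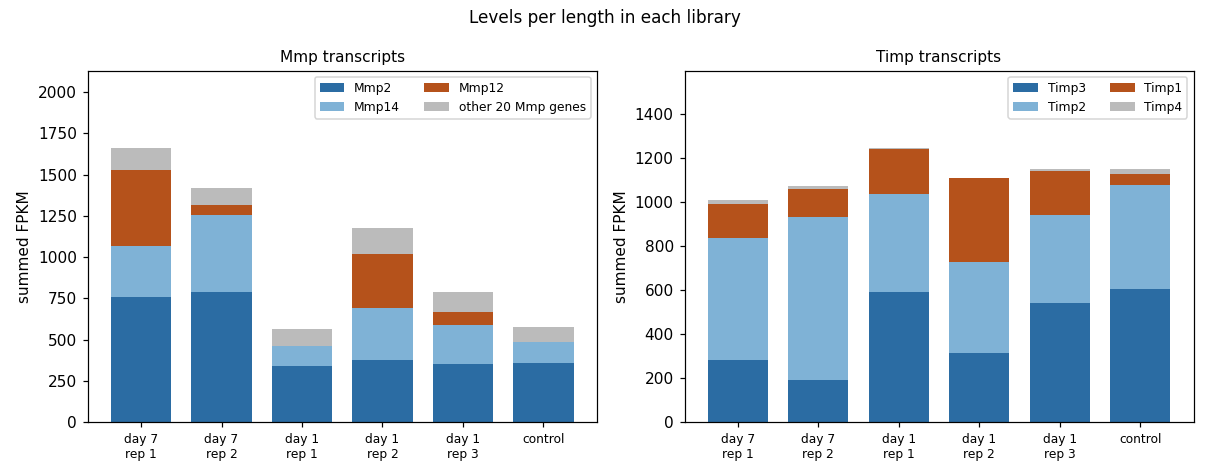
Summed FPKM of the Mmp genes (left) and Timp genes (right) in each library, stacked by gene, with libraries on the horizontal axis. The Mmp sum was highest in the day 7 libraries (1664 and 1422 FPKM), while the Timp sum stayed between 1008 and 1247 FPKM with less Timp3 in the day 7 libraries.

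On the CPM scale, Mmp2 had 2177 and 2287 CPM at day 7, 1192, 1093 and 1040.5 CPM at day 1 and 1135 CPM in the control. The day 7 libraries were both above all others, and the day 1 libraries lay around the control. The difference of day 7 from day 1 was close to a doubling (log2 fold change 1.01 ± 0.28 (SE), unadjusted p = 0.0127, edgeR adjusted p = 0.459), and it was the same size without day 1 replicate 1 (log2 fold change 1.07). Mmp14 had 717 and 1085 CPM at day 7, 343, 753 and 563 CPM at day 1 and 317 CPM in the control. All 5 recanalized libraries were above the control, day 1 replicate 1 by the least, and the day 7 difference from the control was log2 fold change 1.51 ± 0.61 (SE), unadjusted p = 0.0492, edgeR adjusted p = 0.477. Mmp19, an MMP of the vessel wall and of leukocytes, had 90.0 and 63.0 CPM at day 7, 16.6, 123 and 65.3 CPM at day 1 and 10.6 CPM in the control. It rose at day 1 (log2 fold change 3.15 ± 0.53 (SE), edgeR adjusted p = 0.0272, range over 10 alternatives 0.0272 to 0.815) and at day 7 (log2 fold change 2.84 ± 0.52 (SE), edgeR adjusted p = 0.0383, range over 10 alternatives 0.0383 to 0.765) in the fit without day 1 replicate 1.

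The macrophage enzymes followed the split of the libraries. Mmp12, the elastase of macrophages, had 762 and 95.3 CPM at day 7, 0.256, 556 and 134 CPM at day 1 and 0 CPM in the control. Against the control floor of 3 counts its mean was at least 4401-fold higher at day 7 and at least 2359.6-fold higher at day 1, where the libraries ran from 2.63 times the floor in replicate 1 to 5704 times in replicate 2. The test with all libraries did not call it (edgeR adjusted p = 0.477 at day 7 and 0.587 at day 1), nor did the test without day 1 replicate 1 (edgeR adjusted p = 0.0711 and 0.0646). Mmp9, gelatinase B of neutrophils and macrophages, had 65.3 and 5.32 CPM at day 7, 0.800, 86.9 and 39.6 CPM at day 1 and 0.260 CPM in the control. Day 7 replicate 1 was far above day 7 replicate 2, as in Mmp12, and neither comparison with the control was called (edgeR adjusted p = 0.487 at day 7 and 0.592 at day 1). DESeq2 called both genes at both times, with DESeq2 adjusted p of 0.00376 at day 7 and 0.00273 at day 1 for Mmp12, and 0.0194 and 0.00605 for Mmp9. Over 10 alternatives for each, the adjusted p for Mmp12 ran from 0.00376 to 0.838 at day 7 and 0.00273 to 0.917 at day 1, and for Mmp9 from 0.0194 to 0.782 at day 7 and 0.00605 to 0.866 at day 1. The 8 macrophage markers were all detected in each library. Their sum was low in the control and in day 1 replicate 1 and high in the other 4 libraries, as were these 2 genes, but its order differed: day 7 replicate 2 had 997 CPM of markers and 5.32 CPM of Mmp9, and day 1 replicate 3 had 599.9 CPM of markers and 39.6 CPM of Mmp9. The part of macrophages in these values was not tested.

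Mmp13 and the stromelysins Mmp3 and Mmp10 stayed at or below 5.51 CPM in all libraries and had 0 counts in the control. Mmp13, collagenase 3, the main interstitial collagenase of rodents, had 0.878 and 0.668 CPM at day 7, 0, 4.22 and 5.51 CPM at day 1 and 0 CPM in the control. It had 0 counts in the control and in day 1 replicate 1 and was detected in the other 4 libraries, more so in day 1 replicates 2 and 3 than at day 7. Without replicate 1 it was called at day 1 (log2 fold change 10.43 ± 1.34 (SE), edgeR adjusted p = 0.0115, range over 10 alternatives 0.0115 to 0.843) and at day 7 (log2 fold change 7.79 ± 1.40 (SE), edgeR adjusted p = 0.0339, range over 10 alternatives 0.0339 to 0.777), though a fitted fold against a control at 0 is no bound. Against the floor its mean was at least 7.94-fold higher at day 7 and at least 33.3-fold higher at day 1. Mmp3, stromelysin 1, which cleaves many matrix proteins and activates other MMPs, had 1.90 and 0.638 CPM at day 7, 0.192, 4.04 and 2.42 CPM at day 1 and 0 CPM in the control. All 5 recanalized libraries were above the control, and its mean was at least 13.0-fold higher than the floor at day 7 and at least 22.7-fold higher at day 1. It was called at day 1 without replicate 1 (log2 fold change 9.84 ± 1.84 (SE), edgeR adjusted p = 0.0348, range over 10 alternatives 0.0273 to 0.785). The related stromelysin Mmp10 had 0.898 and 0.0607 CPM at day 7, 0, 1.51 and 0.515 CPM at day 1 and 0 CPM in the control, and matrilysin, Mmp7, had 2.15 and 0 CPM at day 7, 0, 4.38 and 0.0644 CPM at day 1 and 0 CPM in the control. Both were at 0 in the control and in 1 or more recanalized libraries, so their direction rests on few libraries. Mmp7 was outside the rule for named genes and was chosen after its values were seen. Mmp1b had at most 0.524 CPM in any library, and its sequence was not compared with that of Mmp1, so reads shared between the 2 genes cannot be told apart.

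Mmp8 and Mmp27 lie next to each other in the run and had other patterns than Mmp13, Mmp12, Mmp3 and Mmp10. Mmp8, the collagenase of neutrophils, had 0.239 and 0.182 CPM at day 7, 3.71, 2.84 and 10.05 CPM at day 1 and 0.942 CPM in the control. The day 1 libraries were all above the control and the day 7 libraries below it (log2 fold change -4.68 ± 0.84 (SE), unadjusted p = 0.00173, edgeR adjusted p = 0.403 for day 7 against day 1). The 8 neutrophil markers summed to 13.5 and 14.0 CPM at day 7, 21.9, 57.6 and 83.2 CPM at day 1 and 1.69 CPM in the control. Most of the sum in day 7 replicate 2 was Csf3r, at 12.1 CPM. S100a9 had 3.81 and 0.486 CPM at day 7 against 0.617 CPM in the control, and S100a8 had 1.36 and 0 CPM against 0.0649 CPM. Cxcr2 was above the control in both, at 2.87 and 1.03 CPM against 0.487 CPM. The part of neutrophils in the Mmp8 values was not tested. Mmp27, a poorly studied relative of the stromelysins, had 0.419 and 0.243 CPM at day 7, 0.128, 0.185 and 0.0644 CPM at day 1 and 3.60 CPM in the control. All 5 recanalized libraries lay below the control, day 1 replicate 1 included. The groups of day 7 and day 1 did not overlap, but they were separated only by 8 counts in day 7 replicate 2 against 6 counts in day 1 replicate 2. With all libraries its day 1 difference had log2 fold change -4.80 ± 0.83 (SE), unadjusted p = 0.00143, edgeR adjusted p = 0.385, and without replicate 1 it fell (log2 fold change -4.81 ± 0.95 (SE), edgeR adjusted p = 0.0420, range over 9 alternatives 0.000571 to 0.726). At day 7 it had log2 fold change -3.42 ± 0.91 (SE), unadjusted p = 0.0102, edgeR adjusted p = 0.477.

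**Figure D3:**
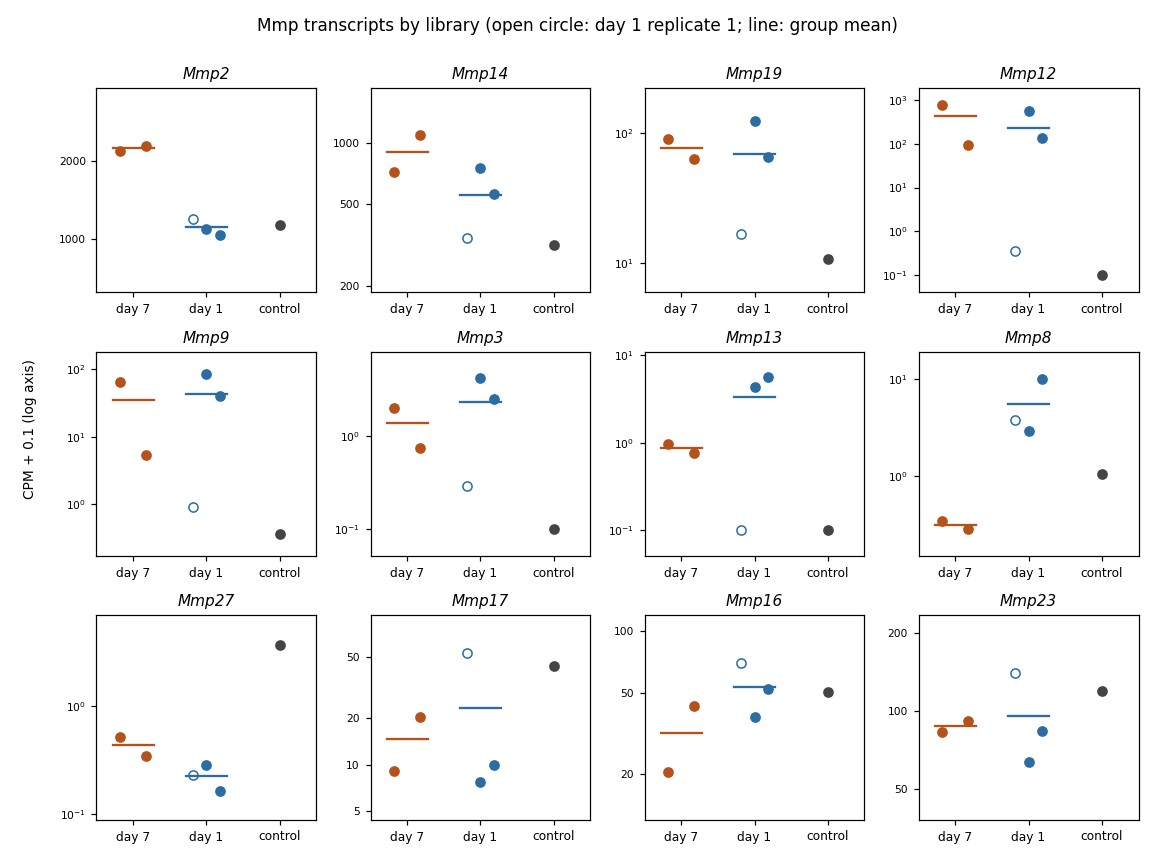
CPM of 12 Mmp genes in each library, with 0.1 added and on a log axis, for day 7 (2 libraries), day 1 (3) and the control (1). Points are libraries, the open circle is day 1 replicate 1, lines are group means, and a point at 0.1 stands for 0 CPM. Mmp2 was highest in both day 7 libraries, Mmp27 was highest in the control, and Mmp12 reached 762 CPM at day 7 against 0 CPM in the control.

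The membrane-anchored MMPs other than Mmp14 differed among themselves. Mmp17, which is tethered by a lipid anchor and is known from vascular smooth muscle, had 9.06 and 20.3 CPM at day 7, 52.6, 7.65 and 9.85 CPM at day 1 and 43.3 CPM in the control. It was high in the control and in day 1 replicate 1 and lower in the other 4 libraries. The summed smooth muscle markers had the same split, but not each marker. Tagln had 4805 and 4181 CPM at day 7, 4644, 1393 and 2184 CPM at day 1 and 4108 CPM in the control, and Des had 121 and 194 CPM at day 7, 65.3, 30.8 and 37.0 CPM at day 1 and 69.4 CPM in the control, so at day 7 these 2 were not below the control. The part of smooth muscle in the Mmp17 values was not tested. Without replicate 1 the day 1 difference was log2 fold change -2.31 ± 0.50 (SE), edgeR adjusted p = 0.0535. The leukocyte enzyme Mmp25 of the same anchored type had 1.12 and 1.70 CPM at day 7, 0.448, 1.08 and 0.869 CPM at day 1 and 0.195 CPM in the control. All recanalized libraries were above the control in Mmp25, at low levels. Mmp16 had 20.3 and 42.9 CPM at day 7, 69.7, 38.1 and 52.2 CPM at day 1 and 50.5 CPM in the control, and Mmp15 had 14.8 and 12.4 CPM at day 7, 11.2, 9.09 and 3.03 CPM at day 1 and 8.41 CPM in the control. The groups overlapped in these 2 genes at day 1. Mmp24 had 12.9 and 8.56 CPM at day 7, 13.2, 10.1 and 13.7 CPM at day 1 and 17.6 CPM in the control (day 7 against control -0.71 ± 0.40 and day 1 against control -0.51 ± 0.38 on the log2 scale, SE). Mmp23, an unusual short MMP, had 82.3 and 91.3 CPM at day 7, 139.8, 63.0 and 83.7 CPM at day 1 and 119 CPM in the control, and it was below the control in both day 7 libraries and in day 1 replicates 2 and 3.

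The 4 inhibitors went different ways. Timp1, the inducible soluble inhibitor, had 112 and 94.8 CPM at day 7, 186, 284 and 149.7 CPM at day 1 and 40.4 CPM in the control. All 5 recanalized libraries were above the control, and the day 7 libraries were below each of the day 1 libraries. Its day 1 difference was log2 fold change 2.35 ± 0.48 (SE), unadjusted p = 0.00301, edgeR adjusted p = 0.422, and without replicate 1 it rose (log2 fold change 2.42 ± 0.48 (SE), edgeR adjusted p = 0.0429, range over 10 alternatives 0.000358 to 0.726). At day 7 the difference from the control was log2 fold change 1.36 ± 0.46 (SE), unadjusted p = 0.0276, edgeR adjusted p = 0.477. Timp2, which takes part in Mmp2 activation by Mmp14, had 867 and 1167 CPM at day 7, 853, 664 and 644 CPM at day 1 and 813 CPM in the control. Day 7 was above day 1 in Timp2 without overlap, and the difference was not called (edgeR adjusted p = 0.583).

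Timp3, which is bound to the matrix and also blocks ADAM17 and ADAMTS enzymes, had 838 and 576 CPM at day 7, 2145, 945 and 1648 CPM at day 1 and 1985 CPM in the control. Both day 7 libraries were below all other libraries, with log2 fold change -1.49 ± 0.57 (SE), unadjusted p = 0.0433, edgeR adjusted p = 0.477 against the control and log2 fold change -1.16 ± 0.46 (SE), unadjusted p = 0.0480, edgeR adjusted p = 0.492 against day 1. Timp4, an inhibitor known from heart and vessels, had 29.9 and 16.2 CPM at day 7, 11.2, 4.53 and 19.5 CPM at day 1 and 41.6 CPM in the control. Each recanalized library was below the control and the times overlapped (log2 fold change -0.85 ± 0.84 (SE), edgeR adjusted p = 0.667 at day 7 and log2 fold change -1.82 ± 0.75 (SE), edgeR adjusted p = 0.578 at day 1). Per length, the order of the Timp genes shifted. In the control Timp3 made 52.7% of the Timp sum, Timp2 40.9% and Timp1 4.33%. At day 7 Timp2 led with 55% and 69.1%, Timp3 had 28% and 18%, and Timp1 had 15.2% and 12%. Day 1 replicate 2 was the 1 library in which Timp1 exceeded Timp3, with a ratio of 1.21, against 0.541 and 0.664 at day 7 and 0.0822 in the control. In the RefSeq annotation Timp1, Timp3 and Timp4 overlap the neuronal synapsin genes Syn1, Syn3 and Syn2, whose highest levels were 2.07, 0.837 and 4.32 CPM.

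The broad sheddases were not called at either time. Adam10, which cleaves Notch and many receptors, had 73.8 and 90.3 CPM at day 7, 40.9, 93.7 and 65.5 CPM at day 1 and 70.8 CPM in the control. Adam17, which releases tumour necrosis factor and ligands of the epidermal growth factor receptor, had 96.4 and 137 CPM at day 7, 135, 148 and 139 CPM at day 1 and 111 CPM in the control. The day 1 libraries of Adam17 lay above the control and the day 7 libraries on either side of it (day 7 against control 0.07 ± 0.31 and day 1 against control 0.35 ± 0.29 on the log2 scale, SE). Adam9, a widespread membrane protease, had 141 and 151 CPM at day 7, 327, 303 and 260.1 CPM at day 1 and 222 CPM in the control. It was above the control in every day 1 library and below it in both day 7 libraries (log2 fold change -1.02 ± 0.23 (SE), unadjusted p = 0.00458, edgeR adjusted p = 0.420 for day 7 against day 1, and without day 1 replicate 1 -0.95 on the log2 scale). Adam15, an ADAM of endothelium and smooth muscle, had 188 and 119 CPM at day 7, 80.1, 163 and 109 CPM at day 1 and 80.0 CPM in the control. Day 1 replicate 1 was level with the control and the other 4 recanalized libraries were above it.

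Adam8, Adam12, Adam19 and Adam23 were above the control in both day 7 libraries and in day 1 replicates 2 and 3. Adam8, found on neutrophils and macrophages, had 83.1 and 35.4 CPM at day 7, 3.49, 192 and 122 CPM at day 1 and 4.12 CPM in the control. It was near the control in day 1 replicate 1 and far above it in the other 4 libraries, and in the fit without that library it rose at day 1 (log2 fold change 5.25 ± 0.75 (SE), edgeR adjusted p = 0.0205, range over 10 alternatives 0.0205 to 0.841) and at day 7 (log2 fold change 3.84 ± 0.70 (SE), edgeR adjusted p = 0.0428, range over 10 alternatives 0.0428 to 0.794). The macrophage marker sum, 16.5 CPM in day 1 replicate 1 and 63.2 CPM in the control but 599.9 CPM or more in the other 4 libraries, separated the libraries as Adam8 did but not in the same order within the 4. Mmp19 was above the control in day 1 replicate 1, where the marker sum was below it. Among the markers, Cd163 was below the control in each day 1 library. The part of macrophages in Adam8 and Mmp19 was not tested. Adam12, a protease of muscle, bone and activated mesenchymal cells, had 51.6 and 265 CPM at day 7, 8.04, 151 and 112 CPM at day 1 and 3.70 CPM in the control. All recanalized libraries were above the control, day 7 replicate 2 most. With all libraries DESeq2 called it at both times (DESeq2 adjusted p = 0.0153 at day 7 and 0.0316 at day 1). Without day 1 replicate 1 edgeR did not call it (log2 fold change 5.42 ± 1.23 (SE), edgeR adjusted p = 0.0875, range over 10 alternatives 0.0153 to 0.765 at day 7 and log2 fold change 5.15 ± 1.22 (SE), edgeR adjusted p = 0.0855, range over 10 alternatives 0.0316 to 0.835 at day 1). Its close relative Adam19 had 89.1 and 173 CPM at day 7, 50.05, 134 and 68.0 CPM at day 1 and 24.6 CPM in the control, with all recanalized libraries above the control and log2 fold change 2.41 ± 0.78 (SE), unadjusted p = 0.0242, edgeR adjusted p = 0.477 at day 7.

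Adam23, a neuronal adhesion ADAM without protease activity, had 61.6 and 114 CPM at day 7, 0.512, 20.2 and 9.98 CPM at day 1 and 2.60 CPM in the control. Both day 7 libraries exceeded all day 1 libraries, and day 1 replicate 1 was below the control. Without that library it rose at day 7 (log2 fold change 5.07 ± 0.73 (SE), edgeR adjusted p = 0.0197, range over 10 alternatives 0.0197 to 0.765). The related inactive Adam22 had 8.56 and 11.3 CPM at day 7, 7.36, 3.98 and 3.99 CPM at day 1 and 6.72 CPM in the control, with day 7 above day 1 and the control without overlap, and Adam11 had at most 3.64 CPM. The 5 Schwann cell markers summed to 24.6 and 17.4 CPM at day 7, 12.5, 24.2 and 27.9 CPM at day 1 and 46.98 CPM in the control, highest in the control. Adam33, a gene of smooth muscle and fibroblasts known from airway disease, had 40.0 and 41.0 CPM at day 7, 121, 51.9 and 76.5 CPM at day 1 and 173 CPM in the control. It was below the control in all recanalized libraries and lowest in both day 7 libraries. At day 7 it had log2 fold change -2.09 ± 0.48 (SE), unadjusted p = 0.00544, edgeR adjusted p = 0.477 with all libraries and fell without day 1 replicate 1 (log2 fold change -2.09 ± 0.31 (SE), edgeR adjusted p = 0.0193, range over 10 alternatives 0.0154 to 0.765). The smooth muscle marker sum was 17183 and 16938 CPM at day 7, 27936, 6416 and 9665 CPM at day 1 and 27112 CPM in the control. Its order differed from that of Adam33. Day 1 replicates 2 and 3 had the lowest sums but more Adam33 than the day 7 libraries. In day 1 replicate 1 the sum was above the control and Adam33 below it. The part of smooth muscle in the Adam33 values was not tested. Adam1a, Adam4 and Adam32 stayed at or below 4.26 CPM in each library.

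**Figure D4:**
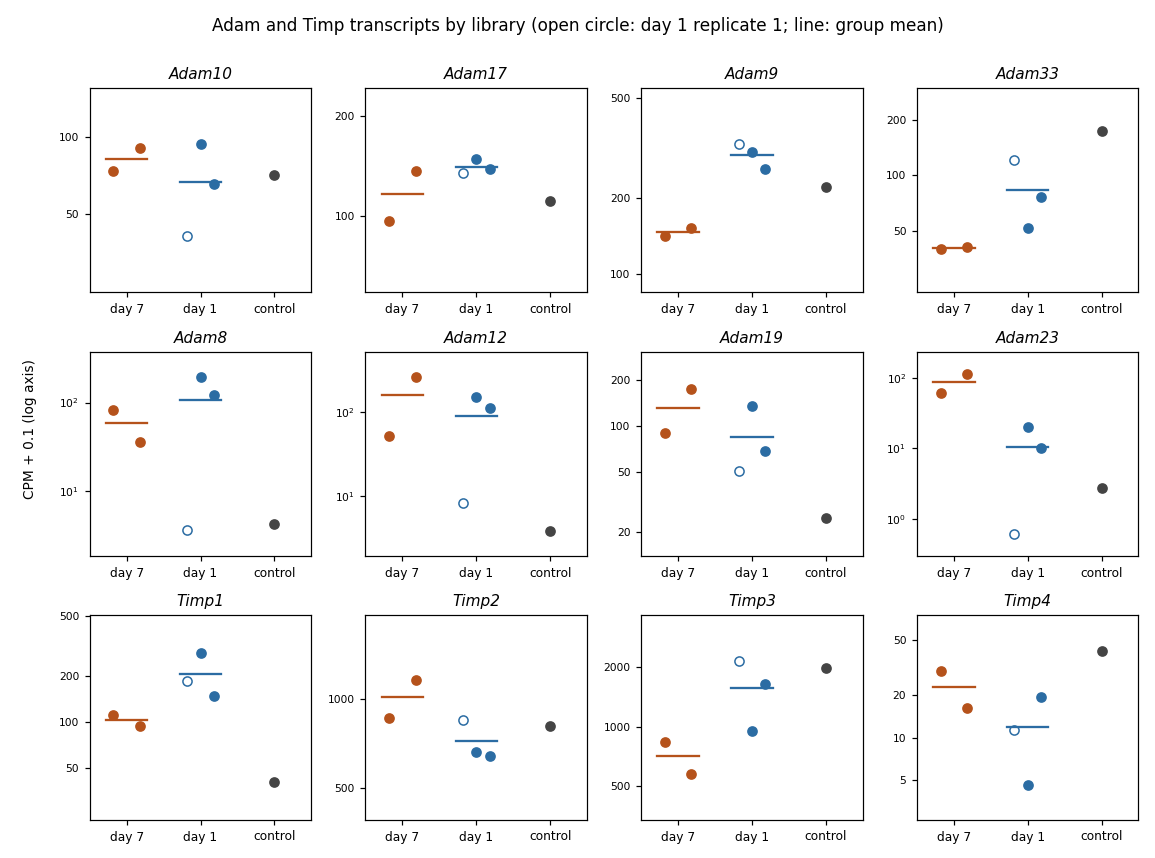
CPM of 8 Adam genes and the 4 Timp genes in each library, with 0.1 added and on a log axis, for day 7 (2 libraries), day 1 (3) and the control (1). Points are libraries, the open circle is day 1 replicate 1 and lines are group means. Timp1 was lowest in the control (40.4 CPM), and Adam33 and Timp3 were lowest in the 2 day 7 libraries.

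Of the ADAMTS proteases, the proteoglycan-cleaving members differed in direction. Adamts1, which cleaves versican and aggrecan, had the highest FPKM of the subfamily in every library, at 102 and 51.2 FPKM at day 7, 199, 164 and 170.3 FPKM at day 1 and 121 FPKM in the control. On the CPM scale it had 420.4 and 213 CPM at day 7, 1006, 687 and 721 CPM at day 1 and 549 CPM in the control. Each day 1 library was above the control and each day 7 library below it (log2 fold change -1.35 ± 0.41 (SE), unadjusted p = 0.0180, edgeR adjusted p = 0.459 for day 7 against day 1). Adamts4, aggrecanase 1, an enzyme induced by inflammatory cytokines, had 11.7 and 12.7 CPM at day 7, 44.1, 261 and 41.0 CPM at day 1 and 2.08 CPM in the control. All recanalized libraries were above the control, day 1 replicate 1 among them, and day 7 was below day 1 without overlap (log2 fold change 5.79 ± 1.65 (SE), unadjusted p = 0.0153, edgeR adjusted p = 0.543 at day 1, and log2 fold change -3.24 ± 1.03 (SE), unadjusted p = 0.0234, edgeR adjusted p = 0.467 for day 7 against day 1). Without day 1 replicate 1 the day 1 difference had log2 fold change 6.18 ± 1.41 (SE), edgeR adjusted p = 0.0785, range over 10 alternatives 5.97e-05 to 0.743.

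Adamts15, another proteoglycan-cleaving enzyme, showed the reverse order. It had 111 and 81.7 CPM at day 7, 22.2, 25.8 and 39.4 CPM at day 1 and 72.4 CPM in the control, with every day 1 library below the control and every day 7 library above it (log2 fold change 1.73 ± 0.31 (SE), unadjusted p = 0.00169, edgeR adjusted p = 0.403 for day 7 against day 1). Its chromosome 8 neighbour Adamts8 had 64.2 and 56.7 CPM at day 7, 147, 57.3 and 67.9 CPM at day 1 and 70.2 CPM in the control, where day 1 replicate 1 alone was high. Adamts9 had 52.8 and 69.0 CPM at day 7, 228, 199 and 91.5 CPM at day 1 and 204 CPM in the control, and both day 7 libraries were below all others (log2 fold change -1.74 ± 0.54 (SE), unadjusted p = 0.0202, edgeR adjusted p = 0.477 against the control). Adamts5, aggrecanase 2, the neighbour of Adamts1 on chromosome 11, had 17.7 and 32.4 CPM at day 7, 20.8, 30.1 and 17.7 CPM at day 1 and 26.3 CPM in the control and overlapped between all groups. Adamts5 was outside the rule for named genes and was chosen after its values were seen. Adamts20 had at most 0.729 CPM.

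The enzymes that trim procollagen also diverged. Adamts2, the main procollagen N-proteinase, had 246 and 251 CPM at day 7, 567, 275 and 249.8 CPM at day 1 and 576 CPM in the control. Its recanalized libraries were below the control, replicate 1 of day 1 by the least, and neither time was called (log2 fold change -1.21 ± 0.55 (SE), edgeR adjusted p = 0.477 at day 7 and log2 fold change -0.66 ± 0.51 (SE), edgeR adjusted p = 0.678 at day 1). Adamts14, which shares this activity, had 16.8 and 23.3 CPM at day 7, 12.5, 30.4 and 22.9 CPM at day 1 and 6.85 CPM in the control. All recanalized libraries were above the control. It was called at day 1 without replicate 1 (log2 fold change 1.96 ± 0.41 (SE), edgeR adjusted p = 0.0470, range over 10 alternatives 0.0470 to 0.786), and at day 7 it had log2 fold change 1.55 ± 0.61 (SE), unadjusted p = 0.0457, edgeR adjusted p = 0.477. Adamts3, also of this type, had 1.56 and 2.89 CPM at day 7, 6.12, 16.4 and 11.1 CPM at day 1 and 4.71 CPM in the control, above the control in each day 1 library and below it in both day 7 libraries (log2 fold change -2.34 ± 0.58 (SE), unadjusted p = 0.00766, edgeR adjusted p = 0.429 for day 7 against day 1).

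Adamts7, which cleaves cartilage oligomeric matrix protein and has been tied to coronary disease in human genetics, had 35.9 and 42.9 CPM at day 7, 3.55, 33.4 and 15.2 CPM at day 1 and 3.28 CPM in the control. It was close to the control in day 1 replicate 1, higher in the other day 1 libraries and highest at day 7. Without replicate 1 it rose at day 1 (log2 fold change 2.89 ± 0.58 (SE), edgeR adjusted p = 0.0448, range over 10 alternatives 0.0448 to 0.847) and at day 7 (log2 fold change 3.59 ± 0.60 (SE), edgeR adjusted p = 0.0293, range over 10 alternatives 0.0293 to 0.765). The related Adamts12 had 62.4 and 206 CPM at day 7, 159, 142 and 137 CPM at day 1 and 145 CPM in the control with overlap between all groups. Comp, the gene of that substrate, had 198 and 309.8 CPM at day 7, 3.91, 15.6 and 16.8 CPM at day 1 and 6.85 CPM in the control. Adamts16, which has been tied to blood pressure in rats, had 5.84 and 22.1 CPM at day 7, 0.256, 6.72 and 3.16 CPM at day 1 and 0.0649 CPM in the control, where the control value is 2 counts. The ratio of pooled counts to the control was 189 at day 7 (exact 95% interval 52.3 to 1565) and 52.7 at day 1 (14.5 to 437). DESeq2 called Adamts16 at both times (DESeq2 adjusted p = 0.00410 at day 7, range over 10 alternatives 0.00410 to 0.765, and 0.0382 at day 1, range 0.0382 to 0.830). The 4 cartilage markers summed to 102 and 827 CPM at day 7, 4.96, 162 and 139.8 CPM at day 1 and 7.01 CPM in the control, and were highest in day 7 replicate 2, as were Adam12, Adamts7 and Adamts16. In the 4 libraries where it was high nearly all of this sum was Acan, which encodes the proteoglycan aggrecan, with 96.3 and 805 CPM at day 7, 3.20, 158 and 135 CPM at day 1 and 1.56 CPM in the control. Chad, another of the 4, was highest in the control, at 2.21 and 2.76 CPM at day 7, 1.31, 1.57 and 3.03 CPM at day 1 and 5.23 CPM in the control. The part of cartilage-like cells in these values was not tested.

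Adamts13, the protease that trims von Willebrand factor and is known mainly from liver, had 0.1795 and 0.121 CPM at day 7, 0.192, 14.9 and 9.05 CPM at day 1 and 0.260 CPM in the control. It was raised in day 1 replicates 2 and 3 alone and at or below the control elsewhere. Without replicate 1 it rose at day 1 (log2 fold change 5.51 ± 0.75 (SE), edgeR adjusted p = 0.0135, range over 10 alternatives 0.0135 to 0.843), and day 7 was below day 1 with all libraries (log2 fold change -5.69 ± 1.90 (SE), unadjusted p = 0.0278, edgeR adjusted p = 0.475). Cacfd1, whose span overlaps that of Adamts13 in RefSeq, had 16.6 to 27.1 CPM over the 6 libraries. Vwf, the gene of the ADAMTS13 substrate, had 1005 and 807 CPM at day 7, 65.1, 262 and 72.8 CPM at day 1 and 721 CPM in the control. Adamts10, an enzyme of fibrillin microfibrils, had 122 and 137 CPM at day 7, 218, 141 and 178 CPM at day 1 and 301 CPM in the control, with all recanalized libraries below the control (log2 fold change -1.22 ± 0.33 (SE), unadjusted p = 0.0120, edgeR adjusted p = 0.477 at day 7). The fibrillin-related Adamts6 had 28.6 and 77.1 CPM at day 7, 47.3, 25.7 and 59.6 CPM at day 1 and 29.9 CPM in the control and Adamts17 had 5.59 to 15.3 CPM over the 6 libraries, without separation of the groups. Adamts6 and Adamts17 were outside the rule for named genes and were chosen after their values were seen. Adamts18 and Adamts19 stayed at or below 1.54 CPM.

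**Figure D5:**
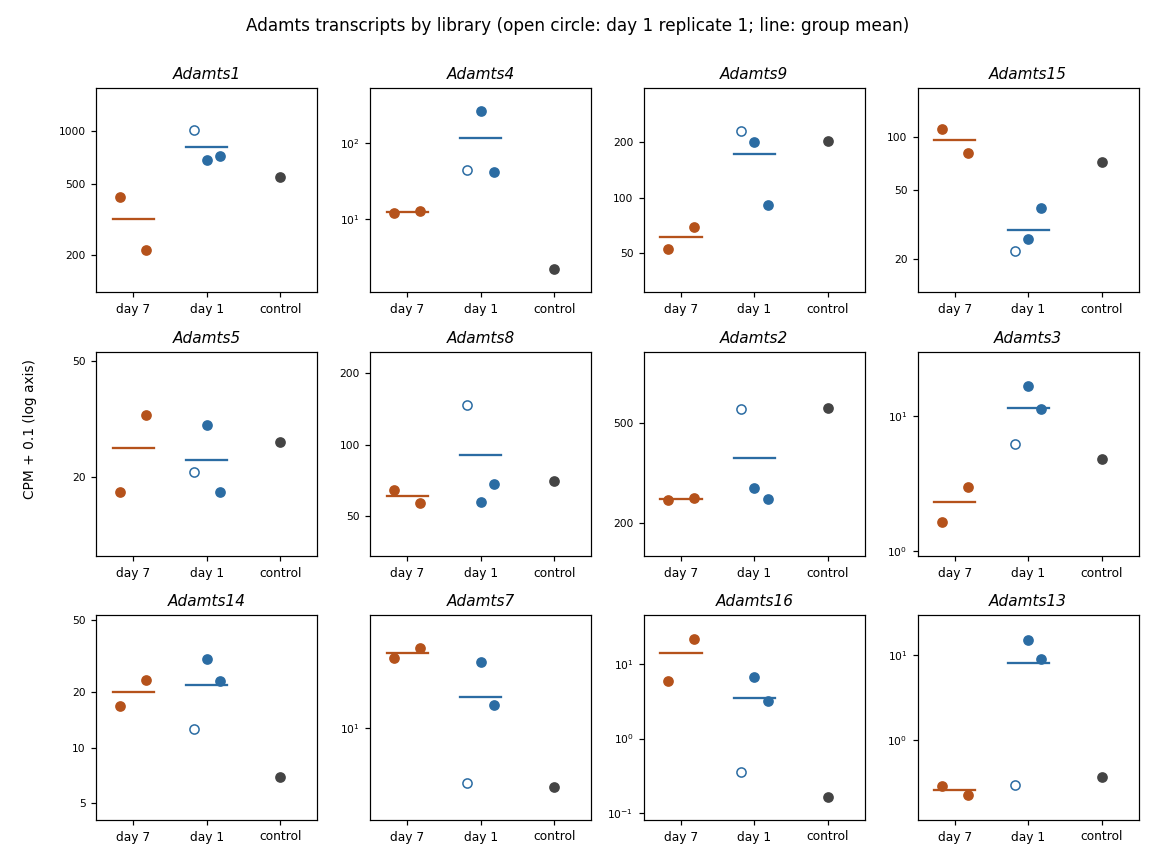
CPM of 12 Adamts genes in each library, with 0.1 added and on a log axis, for day 7 (2 libraries), day 1 (3) and the control (1). Points are libraries, the open circle is day 1 replicate 1 and lines are group means. Adamts1 and Adamts3 were above the control at day 1 and below it at day 7, Adamts15 the reverse, and Adamts13 was raised in day 1 replicates 2 and 3 alone.

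Genes that act with these enzymes were described from 7 lists. Of 21 activators, surface regulators and other inhibitors of MMPs, edgeR called 0 with all libraries at either time. Without day 1 replicate 1 it called 6 higher and 1 lower at day 1, against 4.83% and 0.773% of all genes, and 1 higher at day 7, against 3.81%. Plau, the urokinase that starts the plasmin cascade upstream of MMPs, had 61.1 and 66.8 CPM at day 7, 7.11, 216 and 68.3 CPM at day 1 and 1.01 CPM in the control, and its receptor Plaur had 41.7 and 45.7 CPM at day 7, 73.1, 394 and 125 CPM at day 1 and 3.96 CPM in the control. Tfpi2, an inhibitor of plasmin and MMPs, had 3.71 and 3.43 CPM at day 7, 37.8, 116 and 41.8 CPM at day 1 and 0.487 CPM in the control. Reck, a membrane-bound inhibitor of several MMPs, was not called and had 183 and 130.2 CPM at day 7, 205, 104 and 132 CPM at day 1 and 196 CPM in the control. The list's median log2 fold change was 0.12 at day 7 and 0.11 at day 1 with all libraries. A2m, among the genes called higher at day 1, was at 0 CPM in the control and could only be called higher.

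The calls in the next lists are all from the fit without day 1 replicate 1, in which 3.81% of all genes were called higher and 0.577% lower at day 7, and 4.83% higher and 0.773% lower at day 1. Of 9 partners of ADAM10 and ADAM17, 1 was called higher at each time. This was Rhbdf2, the iRhom protein that carries ADAM17 to the cell surface of leukocytes, with 22.9 and 22.0 CPM at day 7, 12.6, 64.0 and 42.9 CPM at day 1 and 3.28 CPM in the control. All 5 recanalized libraries were above the control in Rhbdf2. Of 15 tested shed substrates, 1 was called higher at day 7 and 6 at day 1 without replicate 1, and the medians with all libraries were 1.39 at day 7 and 2.15 at day 1. Over all tested genes the medians were 0.09 and 0.06. Areg and Ereg, both called higher at day 1, were at 0 CPM in the control and could only be called higher. Tnfrsf1b, a tumour necrosis factor receptor that ADAM17 sheds, had 71.8 and 58.9 CPM at day 7, 7.97, 174 and 75.5 CPM at day 1 and 3.83 CPM in the control, and Tnf itself had 4 libraries at 0 and at most 0.0925 CPM. Of 7 ADAMTS-like proteins, 0 were called at day 7 and 1 lower at day 1 without replicate 1, Thsd4, which binds fibrillin, with 197 and 209 CPM at day 7, 485, 136 and 212 CPM at day 1 and 569 CPM in the control. Of 11 tested ADAMTS substrates, Comp alone was called, at day 7 and without day 1 replicate 1. Of 6 tested metalloproteinases outside the members, 0 were called at either time by edgeR in either fit. Of the cysteine and serine proteases, Ctss, an elastin-cleaving cathepsin of macrophages, was called higher at both times without that library, with 358 and 267 CPM at day 7, 2.95, 225 and 156 CPM at day 1 and 5.88 CPM in the control.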

How the data were processed

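Per the labels, poly(A)-selected RNA of rat carotid arteries was sequenced, and the authors deposited whole-number read counts per gene and, in a separate table, FPKM per gene for the same 6 libraries. Named in the submitters' processing notes are StringTie 1.3.1, HISAT2, Bowtie2 2.2.8 and fastp 0.18.0. The genome build, annotation, counting strand and handling of multi-mapped reads are also not named there or in the labels, and so not given in the sources used here.

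From the deposited counts, CPM used library totals of 30078022 to 47240013 counts after TMM normalization to effective totals of 30798600 to 50128400, and genes were kept by edgeR's filterByExpr (15860 genes). Tests were edgeR 4.0.16 quasi-likelihood fits in R 4.3.3 with 3 groups. The fit of all 6 libraries had 3 residual degrees of freedom, and the fit without day 1 replicate 1 had fewer. P-values were Benjamini-Hochberg adjusted over all tested genes, with called meaning an adjusted p under 0.05. The control has no second library and is assumed to vary like the recanalized groups. Alternatives were DESeq2 1.42.0, limma 3.58.1 (voom), other scaling, other filters and leaving out each recanalized library. The deposited FPKM were used for levels between genes and for sums per library, without a test. No 2 libraries held identical values.

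The members, marker lists and related gene lists were chosen with earlier results of these data known. Values in every library are given for the Timps, members called in either fit, the 8 most abundant members of each other subfamily, and up to 4 members per direction, subfamily and comparison with the largest fold change among those whose groups do not overlap, 47 members in all. Adam4, Adam11, Adamts18 and Adamts20, all at low levels, are exceptions and have only an upper limit. One further symbol in which letters and a digit follow the number, Adam4l1, was not a member. Reads shared by Mmp1 and Mmp1b were not examined, and 7 of the 55 tested members overlap another gene of the count table in RefSeq, so their counts are uncertain without the strand setting.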

Additional observations from a re-analysis of the deposited data

Results flagged for a closer look

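In 6 members every day 1 library lay on one side of the control and every day 7 library on the other, so the times differed in direction from the same control library. The log2 fold change of day 7 against day 1 was -1.02 for Adam9, -1.35 for Adamts1, -2.34 for Adamts3 and -4.68 for Mmp8, which were above the control at day 1 and below it at day 7. It was 1.73 for Adamts15 and 3.04 for Adamts20, which were below the control at day 1 and above it at day 7. Adamts20 had at most 0.729 CPM and 2 day 1 libraries at 0. The edgeR test of the difference itself did not pass for any of the 6, with edgeR adjusted p of 0.403 to 0.538. DESeq2 called 5 of them, with DESeq2 adjusted p of 0.000804 for Adam9, 0.0434 for Adamts1, 0.00753 for Adamts3, 3.19e-06 for Mmp8 and 0.00101 for Adamts15. Over 12 alternatives for each of these 5 genes the adjusted p reached 1. The single control gives no spread of its own.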

How the results depend on the processing

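The number of members called depended on the library labelled day 1 replicate 1 and on the test. DESeq2 called 9 members at day 1 (5.09% of all genes) and 11 at day 7 (4.92%) against the control and 8 between the times (3.18%), where edgeR and limma-voom called 0 in each. Leaving out 1 recanalized library at a time gave 0 to 9 called members at day 1 and 0 to 6 at day 7, and the highest counts came without day 1 replicate 1, where 4.83% of all genes were called higher and 0.773% lower at day 1, and 3.81% and 0.577% at day 7. Leaving out any other library, other scaling and other filters gave 0. Of 512 alternative values of 49 member fold changes, 468 kept direction and side of the threshold, 44 passed it and 0 reversed. Of 63 alternative subfamily medians, 8 moved by more than the spread between libraries. Among them the Mmp median at day 7 over the control was 1.39 without day 7 replicate 1, and the Adamts median was 0.34 without that library. The cause was not tested.

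Whether the replicate numbers of the titles mark pairs could not be decided from the values below. Deviations of same-numbered libraries from their group means had r of -0.048 and -0.054 over 2 pairs. The fit of day 7 against day 1 with the replicate block called 0 members. The library descriptions number the day 7 libraries 2 and 3, not 1 and 2. Paired by those numbers r was 0.054 and -0.010. The deviations of 2 day 7 libraries from their mean are exact opposites, so the 0.054 is the earlier -0.054 with its sign turned. It is no second check, and these values cannot decide whether libraries were paired. The replicate block by description numbers, added after the data were seen, called 1 member, Adamts13, and 103 of 14981 genes.

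Depth limits the members near the floor of 3 counts, among them Mmp10, Mmp7, Adamts20 and, in the recanalized libraries, Mmp27.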
